A study of Mus musculus with 8 samples.

Results

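The genes described here make up the lysosome: 22 acid hydrolases, 3 soluble cofactors of hydrolases and lipid carriers, 9 lysosomal membrane proteins, and 15 genes of the V-ATPase, the proton pump that acidifies the lumen. They were chosen by gene name, as a list of 49 lysosomal genes, and all 49 were found among the 13744 genes measured. RNA was measured in Ly6C-high (Ly6C+) classical monocytes of mouse bone marrow, the precursors of Ly6C-low nonclassical monocytes. The series is about the development of nonclassical monocytes, and it compared wild type classical monocytes with ones labelled as knockouts of 1 of 3 transcription factors, Bcl6, Irf2 or Nr4a1. The 8 bulk libraries fell into 4 genotypes with 2 libraries each: wild type, Bcl6 cKO (a conditional knockout), Irf2 KO and Nr4a1 KO. All 4 genotypes were of the same labelled cell type and tissue, with no treatment in the labels. The sources used here do not give the Cre driver of the conditional knockout, the deleted exons, the strain, the age or the number of mice. The labels do not tie the libraries to separate mice, so p-values measure only the spread of these samples, and that spread may be technical.

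Lysosomal hydrolases are soluble enzymes that reach the lysosome by mannose phosphate tags and work at acid pH. The glycosidases and sulfatases take apart glycoproteins, glycolipids and glycosaminoglycans one end group at a time, so that loss of a single enzyme in humans causes storage of its substrate. The V-ATPase couples ATP hydrolysis in its V1 part to proton transport through its membrane-bound V0 part. Many lysosomal genes are known to carry a CLEAR element near their start, the palindrome bound by Tfeb, Tfe3 and Mitf. In monocytes and macrophages the lysosome digests phagocytosed material.

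The promoters were searched for 4 motifs on both strands, in RefSeq windows on GRCm38.p6 from 250 bases before to 50 bases after each start; 42 of the 49 genes matched a window. The CLEAR element TCACGTGA was present in 6 of the 42 (14.3%), against 1.12% of the 27025 genes with a window. An IRF element (GAAA, 2 free bases and GAAA) was present in 3 of 42 (7.14%, against 3.99%). An NR4A element, AAAGGTCA, was present in 1 of 42 (2.38%, against 1.70%), and the BCL6 and STAT type element TTCNNNGAA in 2 of 42 (4.76%, against 9.55%). No match overlapped a match of another motif. The background of all windows was not limited to the genes tested here, nor matched for level or base composition. A match is a run of letters, not a binding site.

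A CLEAR match is shown first for each of the 6 genes that had any. CLEAR comes first because this element was in a larger share of these windows than of all windows, although most of the 42 lacked it. Each stretch is 30 bases, 5′ to 3′ on the strand of the gene, with the element in capitals. The window of Gla held a further match that is not shown, with its first base at -195 from the start. The stretches lie at chrX:134601215-134601244 (Gla, minus strand), chr8:3500462-3500491 (Mcoln1, plus), chr7:126583340-126583369 (Cln3, minus), chr8:105566050-105566079 (Atp6v0d1, minus), chr17:26676387-26676416 (Atp6v0e, plus) and chr16:44139373-44139402 (Atp6v1a, minus). By GENCODE M21 the stretches of Mcoln1, Cln3 and Atp6v0e overlap an annotated UTR of the same gene, and that of Gla overlaps a UTR of its neighbour Hnrnph2.
Gla: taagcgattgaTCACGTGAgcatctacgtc
Mcoln1: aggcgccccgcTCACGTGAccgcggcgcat
Cln3: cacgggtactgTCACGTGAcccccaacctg
Atp6v0d1: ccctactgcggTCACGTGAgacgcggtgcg
Atp6v0e: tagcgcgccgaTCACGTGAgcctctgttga
Atp6v1a: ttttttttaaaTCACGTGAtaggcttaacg

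Longer stretches upstream of the start are shown as examples for 4 genes that have a window and were lower in 1 knockout than in all 3 other genotypes, chosen after their values were seen: Hexa (chr9:59539290-59539539, plus strand), Gusb (chr5:130003050-130003299, minus) and Tcirg1 (chr19:3905231-3905480, minus), all lowest in Nr4a1 KO, and Arsb (chr13:93771429-93771629, plus, 201 bases), lowest in Irf2 KO. Tcirg1 has 3 windows, and the stretch shown comes from the first by coordinate. It lies within the annotated gene (chr19:3896050-3907133), not upstream of its outermost start. The capitals in Tcirg1 mark its IRF match on the reverse strand. The letters of the 4 motifs were found in none of the other three stretches.
Hexa: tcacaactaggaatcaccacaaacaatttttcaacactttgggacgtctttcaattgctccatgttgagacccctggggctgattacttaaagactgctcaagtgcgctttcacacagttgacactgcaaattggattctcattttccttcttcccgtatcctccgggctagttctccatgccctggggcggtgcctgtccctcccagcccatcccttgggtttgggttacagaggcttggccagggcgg
Gusb: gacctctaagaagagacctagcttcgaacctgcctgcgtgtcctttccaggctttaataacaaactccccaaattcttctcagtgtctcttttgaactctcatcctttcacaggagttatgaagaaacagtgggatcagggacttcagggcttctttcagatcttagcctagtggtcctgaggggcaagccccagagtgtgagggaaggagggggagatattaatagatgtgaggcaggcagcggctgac
Tcirg1: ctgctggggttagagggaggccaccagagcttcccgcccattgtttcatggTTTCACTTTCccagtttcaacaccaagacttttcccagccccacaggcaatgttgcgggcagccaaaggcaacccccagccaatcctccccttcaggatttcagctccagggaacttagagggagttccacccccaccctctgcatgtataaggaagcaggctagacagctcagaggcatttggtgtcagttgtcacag
Arsb: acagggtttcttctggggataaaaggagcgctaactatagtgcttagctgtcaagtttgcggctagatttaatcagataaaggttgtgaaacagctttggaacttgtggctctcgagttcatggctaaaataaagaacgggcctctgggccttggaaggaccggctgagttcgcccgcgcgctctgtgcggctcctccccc

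The libraries held 46617756 to 62633123 reads assigned to genes, and 1 CPM (the normalized read count after the authors' scaling) stood for 47.9 to 61.8 reads. Levels are given as the deposited log2 CPM and differences as log2 fold changes ± SE, n = 2 libraries per genotype. A gene was called where the adjusted p was under 0.05 (limma, Benjamini-Hochberg over 12752 genes). Of the targeted genes, Nr4a1 was at 4.64 and 5.29 log2 CPM in wild type and 2.32 and 2.98 in Nr4a1 KO, and Irf2 at 7.18 and 7.14 in wild type and 6.50 and 6.69 in Irf2 KO. Bcl6 was at 4.66 and 4.64 in wild type and 6.53 and 6.40 in the libraries labelled Bcl6 cKO. Bcl6 reads were thus higher under that label. They cannot check it, because the deleted exons are not given and reads outside those exons may remain. These libraries are called the Bcl6 cKO-labelled libraries below, and every direction given for them rests on the label. Both other targeted genes were also called lower in Irf2 KO than in wild type. Nr4a1 was at 2.59 and 2.52 log2 CPM there (log2 fold change -2.41 ± 0.27, adjusted p = 0.00163). Bcl6 was at 3.37 and 3.79 log2 CPM (-1.07 ± 0.16, adjusted p = 0.00382). The 8 markers that define classical monocytes were all measured, and they summed to 29614 and 34278 CPM in wild type and 18749 and 21562 CPM in Irf2 KO.

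Lysosomal genes were among the more abundant transcripts of wild type monocytes. Per kb of the longest coding transcript, 41 of the 49 stood above the median of the tested genes (6.73 CPM per kb), 32 above its 75th percentile and 21 above its 90th. Psap, the precursor of the saposins that present lipids to hydrolases, was highest at 1497 CPM per kb. Next came Laptm5, a lysosomal membrane protein of blood cells, at 944, and Cd68, a heavily glycosylated membrane protein used as a macrophage marker, at 570. The lowest were Ids, an iduronate sulfatase, at 1.88 CPM per kb, and Naglu, a glucosaminidase of heparan sulfate breakdown, at 3.87.

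The roles differed in their range. Glycosidases ran from Naglu to Hexa at 185 CPM per kb, and sulfatases from Ids to Arsb at 8.35, so that no sulfatase came near the abundant glycosidases. Lipid hydrolases ran from 11.8 (Smpd1) to 127 (Asah1), peptidases from 10.3 (Cpq) to 39.5 (Tpp1), and soluble cofactors from 426 (Npc2) to Psap. Membrane proteins ran from Cd63, a tetraspanin, at 5.18 CPM per kb to Laptm5. All 15 V-ATPase genes were above the 75th percentile, from 38.1 CPM per kb (Atp6v1d) to 447 (Atp6v0c, the proteolipid of the V0 ring). Within the pump, V0 genes ran from 84.7 (Tcirg1) to Atp6v0c, V1 genes from Atp6v1d to 374 (Atp6v1f), and the accessory proteins from 70.3 (Atp6ap2) to 289 (Atp6ap1).

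**Figure D1:**
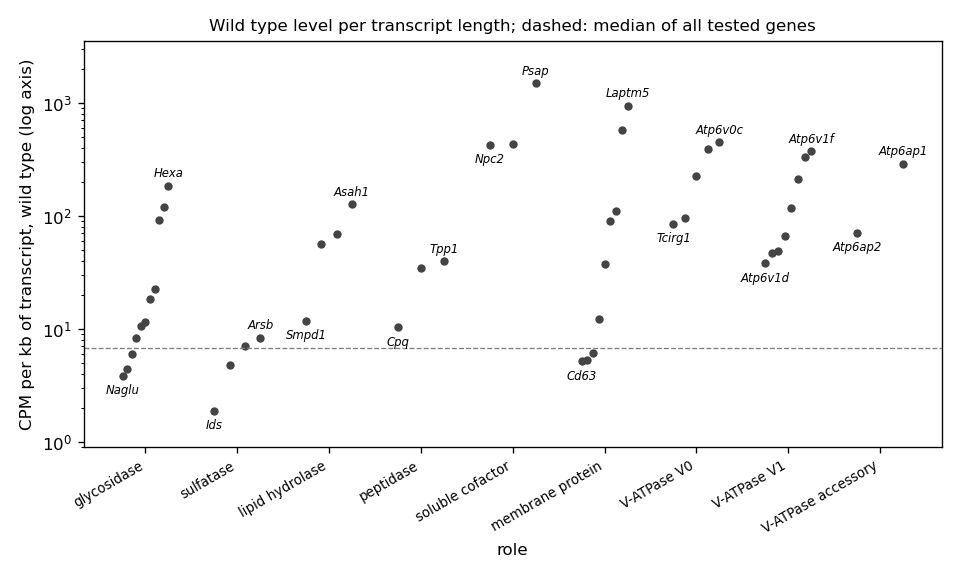
Wild type level of the 49 genes in CPM per kb of transcript (log axis) by role, 1 point per gene, with the median of all tested genes (6.73) as a dashed line. All 15 V-ATPase genes lie above 38, while the sulfatases lie at or below 8.35.

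Against wild type, 15 of the 49 genes were lower in Irf2 KO, 8 in Nr4a1 KO and 1 in the Bcl6 cKO-labelled libraries, and none was called higher in this fit. With a filter of 4 CPM Atp6v1d was called higher in Nr4a1 KO (0.32, adjusted p = 0.0421), and without Irf2 KO replicate 1 Gla was called higher in Irf2 KO (0.75, adjusted p = 0.0486). Other scalings also gave higher calls. Of all tested genes, 12.3% were lower and 9.26% higher in Irf2 KO, 11.2% and 3.94% in Nr4a1 KO, and 3.65% and 1.36% in the Bcl6 cKO-labelled libraries. In Irf2 KO the share of lysosomal genes called lower was 30.6%, above that background. The counts for Nr4a1 KO and the Bcl6 cKO-labelled libraries stood near theirs. The background was not matched for level, and in wild type 41 of the 49 stood above the median of the tested genes per kb. How far level changes the share was not tested. The 49 genes were also chosen with earlier results of these data known. The median log2 fold change of the 49 was -0.37 in Irf2 KO (all tested genes -0.04), -0.06 in Nr4a1 KO (0.01) and -0.04 in the Bcl6 cKO-labelled libraries (-0.01). In all, 19 genes were called against wild type and 30 were not. In bulk RNA, fewer cells of a type and less RNA per cell cannot be told apart.

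Scaling changed how one-sided this was. Centring each library on its median shifted the median log2 fold change of all tested genes by 0.10 in Irf2 KO and 0.13 in Nr4a1 KO, and the counts became 2 higher and 12 lower, and 3 higher and 6 lower. Over all tested genes, the share of calls that were higher went from 42.9% to 59.3% in Irf2 KO and from 26.1% to 50.7% in Nr4a1 KO. With quantile normalization the counts were 2 higher and 15 lower in Irf2 KO, and 1 and 6 in Nr4a1 KO. With values corrected for GC content and transcript length (the GC correction below) they were 3 and 8 in Irf2 KO, and 3 and 4 in Nr4a1 KO, and Lamp1 was called higher in the Bcl6 cKO-labelled libraries (0.49, adjusted p = 0.0487). Of the calls against wild type, 7 of 15 in Irf2 KO (Man2b1, Arsb, Asah1, Cpq, Cd68, Laptm5 and Atp6ap1) and 4 of 8 in Nr4a1 KO (Hexa, Gusb, Atp6v0d1 and Atp6v1b2) were kept under all 12 alternatives and without any 1 library. The single call in the Bcl6 cKO-labelled libraries was not.

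**Figure D2:**
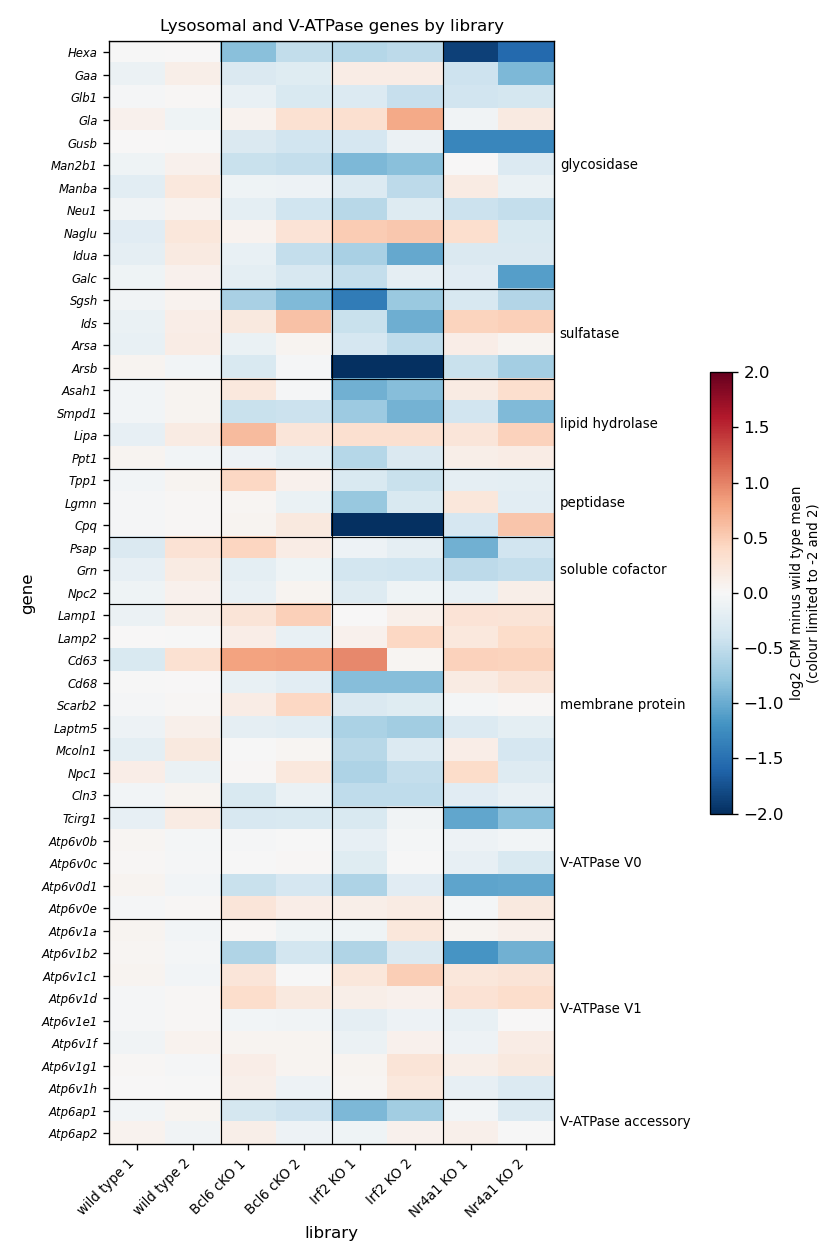
Log2 CPM of the 49 genes in the 8 libraries, as the difference from the wild type mean of each gene, ordered by role. By value, Cpq and Arsb are the lowest in the Irf2 KO columns, and Hexa and Gusb in the Nr4a1 KO columns. The colour scale is cut off at both ends, so Cpq and Arsb take the same colour in Irf2 KO.

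The glycosidases held the largest falls in Nr4a1 KO. Of 11, 3 were lower in Nr4a1 KO (Hexa, Gusb and Gaa), 3 in Irf2 KO (Man2b1, Idua and Hexa) and 1 in the Bcl6 cKO-labelled libraries (Hexa). Hexa (ENSMUSG00000025232, chr9:59539540-59565109 on GRCm38), the alpha subunit of the beta-hexosaminidase that degrades gangliosides, was at 8.53 and 8.53 log2 CPM in wild type, 7.70 and 8.04 in the Bcl6 cKO-labelled libraries, 7.96 and 8.00 in Irf2 KO, and 6.66 and 6.97 in Nr4a1 KO. All 6 libraries of the other genotypes were below both wild type libraries, and the Nr4a1 KO libraries were lowest. Hexa fell by 1.72 ± 0.14 on the log2 scale in Nr4a1 KO (3.29-fold, adjusted p = 8.21e-05), by 0.55 ± 0.14 in Irf2 KO (adjusted p = 0.025) and by 0.66 ± 0.14 in the Bcl6 cKO-labelled libraries (adjusted p = 0.0313). The 3 comparisons share the wild type libraries.

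The call of Hexa in Irf2 KO ended after the GC correction (log2 fold change -0.30, adjusted p = 0.141), without a trend of the prior variance, and without either wild type or either Irf2 KO library (adjusted p = 0.0876 to 0.105). In the Bcl6 cKO-labelled libraries it ended after the same correction (-0.43, adjusted p = 0.109). It also ended there without a trend, without wild type replicate 1 (adjusted p = 0.113) or 2 (0.126), without Bcl6 cKO replicate 1 (0.206), and without Irf2 KO replicate 1 (0.0544) or 2 (0.0533).

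Gusb (ENSMUSG00000025534, chr5:129989011-130003049), the beta-glucuronidase of glycosaminoglycan breakdown, was at 7.95 and 7.92 log2 CPM in wild type, 7.65 and 7.55 in the Bcl6 cKO-labelled libraries, 7.60 and 7.81 in Irf2 KO, and 6.64 and 6.63 in Nr4a1 KO. The Nr4a1 KO libraries lay about 1 log2 unit below all others. Gusb fell by 1.31 ± 0.10 in Nr4a1 KO (2.47-fold, adjusted p = 6.6e-05) and was called in neither of the other comparisons with wild type. Gaa, the acid glucosidase that digests glycogen, was at 5.14 and 5.37 log2 CPM in wild type, 4.96 and 5.01 in the Bcl6 cKO-labelled libraries, 5.41 and 5.41 in Irf2 KO, and 4.84 and 4.36 in Nr4a1 KO. Its fall of 0.66 ± 0.17 in Nr4a1 KO (adjusted p = 0.0342) rested on the second Nr4a1 KO library, which was the lower of the pair: without it the log2 fold change was -0.42 (adjusted p = 0.126). It was also lost on leaving out any 1 library of wild type, Bcl6 cKO or Irf2 KO (adjusted p = 0.0557 to 0.175), and with the GC correction the change was -0.08 (adjusted p = 0.763). Median centring (adjusted p = 0.0611), quantile normalization (0.0689), a fit of the 2 groups alone (0.119) and a fit with no trend (0.0706) ended it too.

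Man2b1, the lysosomal alpha-mannosidase, showed another pattern, with 8.75 and 8.91 log2 CPM in wild type, 8.39 and 8.36 in the Bcl6 cKO-labelled libraries, 7.93 and 7.99 in Irf2 KO, and 8.84 and 8.55 in Nr4a1 KO. Irf2 KO was lowest, and Nr4a1 KO overlapped wild type. Man2b1 fell by 0.87 ± 0.11 in Irf2 KO (1.83-fold, adjusted p = 0.00251). Idua, the iduronidase that acts on heparan and dermatan sulfate, was at 4.22 and 4.57 log2 CPM in wild type, 4.25 and 3.92 in the Bcl6 cKO-labelled libraries, 3.74 and 3.37 in Irf2 KO, and 4.10 and 4.11 in Nr4a1 KO. It fell by 0.84 ± 0.20 in Irf2 KO (adjusted p = 0.0203). That call ended with the GC correction (-0.55, adjusted p = 0.099), without wild type replicate 2 (0.118) and when Irf2 KO replicate 2 was left out (0.122). The other 6 glycosidases (Glb1, Gla, Manba, Neu1, Naglu and Galc) were called in no comparison, with log2 fold changes from -0.67 (Galc in Nr4a1 KO) to 0.54 (Gla in Irf2 KO). Gla, the alpha-galactosidase of globoside breakdown, was called higher in Irf2 KO with median centring (0.64, adjusted p = 0.0343), quantile normalization and the GC correction, and without Irf2 KO replicate 1. With the GC correction Naglu and Gaa were called higher there too (0.91, adjusted p = 0.0335, and 0.55, adjusted p = 0.0461).

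Of the 4 sulfatases, 2 were lower in Irf2 KO and none was called in the other comparisons with wild type. Arsb (ENSMUSG00000042082, chr13:93771630-93943016), which removes sulfate from dermatan and chondroitin sulfate, was at 5.13 and 5.02 log2 CPM in wild type, 4.77 and 5.04 in the Bcl6 cKO-labelled libraries, 2.79 and 2.15 in Irf2 KO, and 4.62 and 4.40 in Nr4a1 KO. In reads, that was 2031 and 1665 in wild type against 334 and 242 in Irf2 KO. The Irf2 KO libraries stood apart from the other 6, and Arsb fell by 2.61 ± 0.22 there (6.09-fold, adjusted p = 0.00104). Sgsh, the sulfamidase of heparan sulfate breakdown, was at 4.32 and 4.45 log2 CPM in wild type, 3.74 and 3.50 in the Bcl6 cKO-labelled libraries, 2.98 and 3.64 in Irf2 KO, and 4.06 and 3.80 in Nr4a1 KO. The Irf2 KO libraries overlapped the Bcl6 cKO-labelled ones, whose log2 fold change of -0.76 did not pass the test. In Irf2 KO Sgsh fell by 1.08 ± 0.23 (2.11-fold, adjusted p = 0.0141), a call that ended with the GC correction (-0.73, adjusted p = 0.0697), on leaving out wild type replicate 2 (0.0763) or Irf2 KO replicate 1 (0.0711).

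Neither Ids nor Arsa, the arylsulfatase of sulfatide, was called against wild type, although Arsa was called higher in Nr4a1 KO with the GC correction (0.54, adjusted p = 0.0351). Ids was at 3.10 and 3.35 log2 CPM in wild type, 3.41 and 3.80 in the Bcl6 cKO-labelled libraries, 2.78 and 2.25 in Irf2 KO, and 3.67 and 3.70 in Nr4a1 KO. It was called in a direct comparison, being lower in Irf2 KO than in Nr4a1 KO by 1.17 (log2 fold change -1.17, adjusted p = 0.00858). Without Irf2 KO replicate 2 that difference was -0.91 (adjusted p = 0.0596). The 4 sulfatases summed to 85.5 and 91.8 CPM in wild type and 41.0 and 38.9 CPM in Irf2 KO.

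Lipid hydrolases were lower mainly in Irf2 KO, where 3 of 4 were called. Asah1 (ENSMUSG00000031591, chr8:41340197-41374773), the acid ceramidase, was at 8.40 and 8.52 log2 CPM in wild type, 8.67 and 8.44 in the Bcl6 cKO-labelled libraries, 7.50 and 7.61 in Irf2 KO, and 8.62 and 8.79 in Nr4a1 KO. The Irf2 KO pair was the lowest by a wide gap, and Asah1 fell by 0.91 ± 0.11 there (1.87-fold, adjusted p = 0.00224). Ppt1, which removes palmitate from proteins, was at 7.42 and 7.33 log2 CPM in wild type, 7.27 and 7.18 in the Bcl6 cKO-labelled libraries, 6.81 and 7.08 in Irf2 KO, and 7.50 and 7.52 in Nr4a1 KO. Its fall of 0.43 ± 0.11 in Irf2 KO (adjusted p = 0.0275) ended when replicate 1 of Irf2 KO was left out (-0.29, adjusted p = 0.153), or replicate 1 or 2 of wild type (0.118 and 0.0765), and with median centring (0.0784), no trend (0.0759) or the 2 groups alone (0.0526).

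Smpd1, the acid sphingomyelinase, was at 4.78 and 4.88 log2 CPM in wild type, 4.38 and 4.40 in the Bcl6 cKO-labelled libraries, 4.10 and 3.89 in Irf2 KO, and 4.45 and 3.95 in Nr4a1 KO. All 6 other libraries were below wild type. Smpd1 fell by 0.84 ± 0.18 in Irf2 KO (adjusted p = 0.0148) and by 0.63 ± 0.18 in Nr4a1 KO (adjusted p = 0.0496). The Nr4a1 KO call held in 2 of 12 alternatives and was lost on leaving out any 1 library but Nr4a1 KO replicate 1 (adjusted p = 0.0664 to 0.196). The Irf2 KO call ended with the GC correction (-0.54, adjusted p = 0.0861), without either wild type library (0.0502 and 0.0785) and without Irf2 KO replicate 2 (0.0891). With that correction the change in Nr4a1 KO was -0.20 (adjusted p = 0.523). Lipa, the acid lipase of cholesteryl esters, was called in no comparison, with log2 fold changes of 0.32 to 0.44 against wild type.

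Cpq (ENSMUSG00000039007, chr15:33083129-33594552), a secreted and lysosomal carboxypeptidase, showed the largest change of the 49 genes. It was at 4.29 and 4.33 log2 CPM in wild type, 4.37 and 4.51 in the Bcl6 cKO-labelled libraries, -1.39 and -1.41 in Irf2 KO, and 3.98 and 4.87 in Nr4a1 KO. Reads numbered 1135 and 1034 in wild type and 18 and 20 in Irf2 KO. The Irf2 KO libraries were thus far below the other 6, and Cpq fell by 5.71 ± 0.28 there (52.5-fold, adjusted p = 0.000149). The other peptidases, Tpp1 and Lgmn, were not called against wild type, with log2 fold changes in Irf2 KO of -0.38 ± 0.12 (adjusted p = 0.0577) and -0.53 ± 0.19 (adjusted p = 0.0737).

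**Figure D3:**
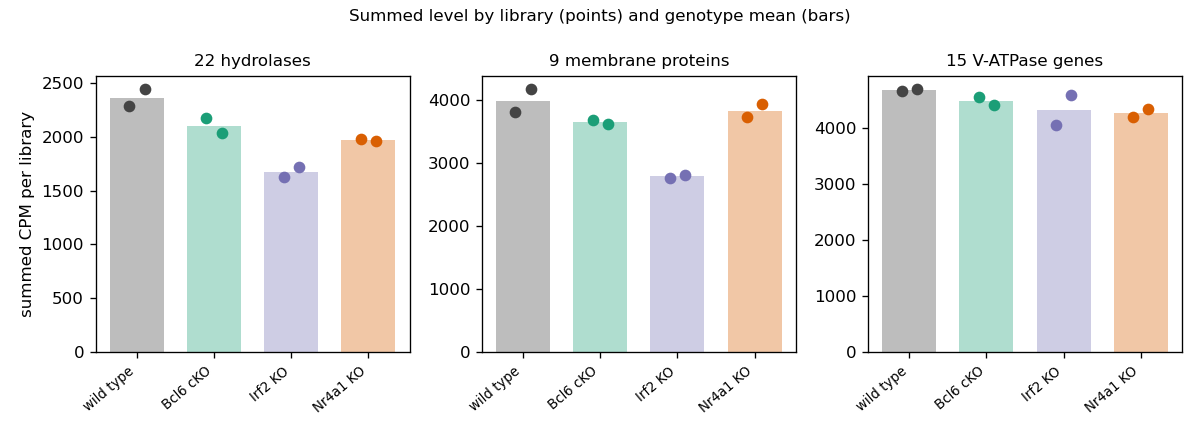
Summed CPM per library (points) and genotype mean (bars, from 0) of the 22 hydrolases, the 9 membrane proteins and the 15 V-ATPase genes. Hydrolases summed to 1628 and 1722 CPM in Irf2 KO against 2280 and 2439 in wild type, while the V-ATPase sums of Irf2 KO (4056 and 4597) lay closer to wild type (4653 and 4693).

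Among the soluble cofactors, only Grn was called against wild type. Grn, progranulin, whose loss in mice enlarges lysosomes with age, was at 9.82 and 10.14 log2 CPM in wild type, 9.79 and 9.89 in the Bcl6 cKO-labelled libraries, 9.61 and 9.58 in Irf2 KO, and 9.46 and 9.51 in Nr4a1 KO. It fell by 0.39 ± 0.11 in Irf2 KO (adjusted p = 0.0414) and by 0.49 ± 0.11 in Nr4a1 KO (adjusted p = 0.0203). With the GC correction these changes were -0.08 (adjusted p = 0.604) and -0.04 (adjusted p = 0.833). Both calls ended without the higher wild type library, replicate 2 (-0.23, adjusted p = 0.219, and -0.33, adjusted p = 0.112), and with no trend or with the 2 groups alone. The Nr4a1 KO call also ended without Nr4a1 KO replicate 1 (0.0588), and the Irf2 KO call with median centring (0.0916) or without either Bcl6 cKO library (0.0655 and 0.0652) or either Irf2 KO library (0.123 and 0.156).

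Psap was at 11.66 and 12.25 log2 CPM in wild type, 12.38 and 12.11 in the Bcl6 cKO-labelled libraries, 11.86 and 11.77 in Irf2 KO, and 10.99 and 11.58 in Nr4a1 KO. Both Nr4a1 KO libraries were below all others, yet replicates differed by about as much as the genotypes, and the log2 fold change of -0.67 ± 0.23 did not pass the test (adjusted p = 0.0816). Psap alone made up a large part of the summed level: the 49 genes summed to 16201 and 18799 CPM in wild type, and to 12957 and 13926 CPM without it. Npc2, the carrier that hands cholesterol to Npc1, was called in no comparison, with log2 fold changes from -0.18 to -0.01 against wild type.

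Of the 9 membrane proteins, 3 were lower in Irf2 KO and none was called in the other comparisons with wild type. Cd68 (ENSMUSG00000018774, chr11:69664213-69666153) was at 9.45 and 9.46 log2 CPM in wild type, 9.31 and 9.24 in the Bcl6 cKO-labelled libraries, 8.60 and 8.61 in Irf2 KO, and 9.62 and 9.71 in Nr4a1 KO. Replicates lay close together, with Irf2 KO lowest and Nr4a1 KO highest. Cd68 fell by 0.85 ± 0.08 in Irf2 KO (1.80-fold, adjusted p = 0.00115), and its log2 fold change of 0.21 in Nr4a1 KO did not pass the test, although it did with median centring (0.34, adjusted p = 0.0285) and the GC correction (0.34, adjusted p = 0.0238). Laptm5 was at 11.17 and 11.36 log2 CPM in wild type, 11.07 and 11.06 in the Bcl6 cKO-labelled libraries, 10.63 and 10.56 in Irf2 KO, and 10.98 and 11.06 in Nr4a1 KO. Wild type was highest and Irf2 KO lowest, with a fall of 0.67 ± 0.09 (1.59-fold, adjusted p = 0.00333).

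Cln3, the protein missing in juvenile Batten disease, was at 6.86 and 6.98 log2 CPM in wild type, 6.61 and 6.78 in the Bcl6 cKO-labelled libraries, 6.40 and 6.41 in Irf2 KO, and 6.69 and 6.76 in Nr4a1 KO. It fell by 0.51 ± 0.10 in Irf2 KO (adjusted p = 0.0113). The call ended with the GC correction (-0.31, adjusted p = 0.0641), without wild type replicate 2 (0.069) and without either Irf2 KO library (0.0567 and 0.0577). Lamp1 and Lamp2, major proteins of the lysosomal membrane, were called in no comparison, but Lamp1 was called higher in Nr4a1 KO with median centring (0.39, adjusted p = 0.0392) and the GC correction (0.44, adjusted p = 0.0312). Cd63, Scarb2 (the carrier of glucocerebrosidase), Mcoln1 (a calcium channel) and Npc1 (a cholesterol exporter) were not called against wild type either, and log2 fold changes of these 6 ran from -0.55 (Npc1 in Irf2 KO) to 0.81 (Cd63 in the Bcl6 cKO-labelled libraries). The CLEAR element was in the windows of Cln3 and Mcoln1, of which Cln3 alone was called.

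Most of the proton pump did not differ detectably. None of the 15 V-ATPase genes was called against wild type in the Bcl6 cKO-labelled libraries. In Irf2 KO 2 were lower (13.3%, against 12.3% of all tested genes), and in Nr4a1 KO 3 were lower (20%, against 11.2%). In Nr4a1 KO these were Atp6v1b2 (the B subunit of the V1 head), Atp6v0d1 (the d subunit, which links V1 to the V0 ring) and Tcirg1 (an isoform of the V0 a subunit). Atp6v1b2 (ENSMUSG00000006273, chr8:69088646-69113711) was at 8.42 and 8.33 log2 CPM in wild type, 7.76 and 8.00 in the Bcl6 cKO-labelled libraries, 7.77 and 8.09 in Irf2 KO, and 7.20 and 7.41 in Nr4a1 KO. Nr4a1 KO was lowest and the other 2 genotypes lay between it and wild type. Atp6v1b2 fell by 1.07 ± 0.14 in Nr4a1 KO (2.10-fold, adjusted p = 0.00107) and by 0.44 ± 0.14 in Irf2 KO (adjusted p = 0.0486). The Irf2 KO call held in 6 of 12 alternatives. It was lost on leaving out any 1 library of wild type or Bcl6 cKO, or Irf2 KO replicate 1 (adjusted p = 0.0635 to 0.251).

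Atp6v0d1, on the minus strand of chromosome 8, was at 7.33 and 7.23 log2 CPM in wild type, 6.84 and 6.94 in the Bcl6 cKO-labelled libraries, 6.67 and 7.06 in Irf2 KO, and 6.22 and 6.24 in Nr4a1 KO. It fell by 1.05 ± 0.13 in Nr4a1 KO (2.07-fold, adjusted p = 0.000964). Tcirg1 (chr19:3896050-3907133) was at 7.85 and 8.17 log2 CPM in wild type, 7.69 and 7.70 in the Bcl6 cKO-labelled libraries, 7.71 and 7.93 in Irf2 KO, and 6.97 and 7.18 in Nr4a1 KO. Again the Nr4a1 KO libraries were below all others, and Tcirg1 fell by 0.93 ± 0.13 (1.91-fold, adjusted p = 0.00195). With the GC correction its change was -0.37 (adjusted p = 0.0791).

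Atp6ap1, the glycosylated accessory protein needed for assembly of the pump, was at 9.26 and 9.35 log2 CPM in wild type, 8.95 and 8.88 in the Bcl6 cKO-labelled libraries, 8.41 and 8.61 in Irf2 KO, and 9.24 and 9.04 in Nr4a1 KO. Its lowest libraries were those of Irf2 KO, with a fall of 0.79 ± 0.11 (1.73-fold, adjusted p = 0.00294). The other 11 pump genes (Atp6v0b, Atp6v0c, Atp6v0e, Atp6v1a, Atp6v1c1, Atp6v1d, Atp6v1e1, Atp6v1f, Atp6v1g1, Atp6v1h and Atp6ap2) were called in none of the 6 comparisons. Their log2 fold changes against wild type ran from -0.24 (Atp6v0c in Nr4a1 KO) to 0.36 (Atp6v1c1 in Irf2 KO). Atp6v1a, the catalytic A subunit that pairs with the B subunit in the V1 head, had log2 fold changes of 0.07 ± 0.12 in both Irf2 KO and Nr4a1 KO. Atp6v1d in Nr4a1 KO was just short of the threshold (0.32 ± 0.09, adjusted p = 0.0505) and was called higher with a filter of 4 CPM (0.32, adjusted p = 0.0421), median centring (0.45, adjusted p = 0.016) and quantile normalization (0.44, adjusted p = 0.0143). Atp6v1c1 was called higher in Irf2 KO with median centring and quantile normalization (0.46, adjusted p = 0.0387, and 0.40, adjusted p = 0.0461).

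**Figure D4:**
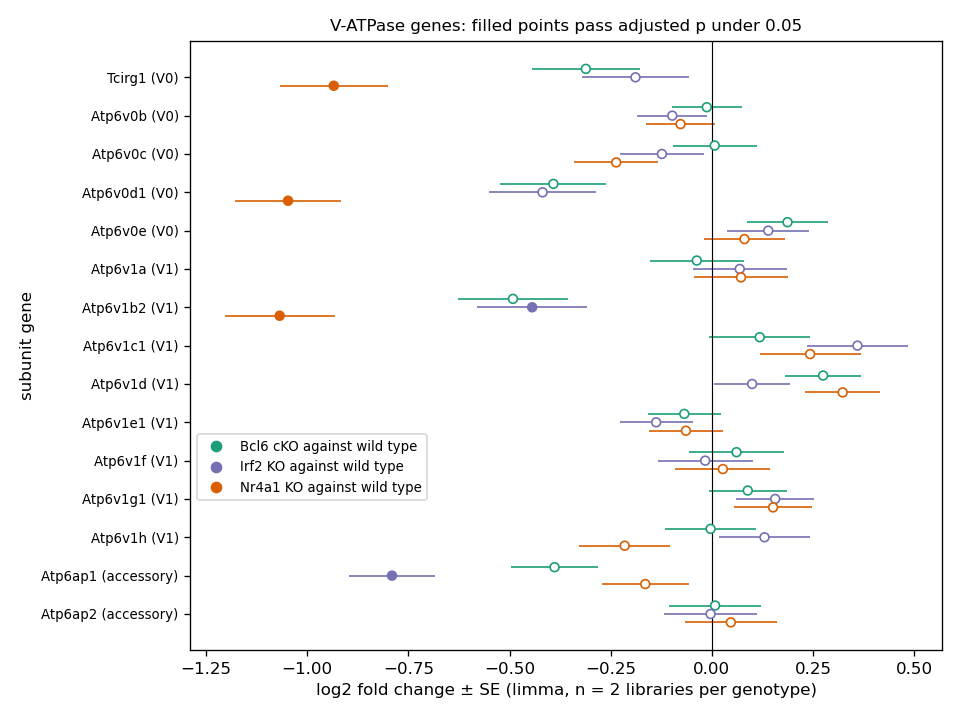
Log2 fold change ± SE against wild type (limma, n = 2 libraries per genotype) of the 15 V-ATPase genes in Irf2 KO, Nr4a1 KO and the Bcl6 cKO-labelled libraries, filled where the adjusted p was under 0.05. Atp6v1b2, Atp6v0d1 and Tcirg1 stand out in Nr4a1 KO and Atp6ap1 in Irf2 KO, while 11 genes have no filled point.

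The genes lowest in Irf2 KO and those lowest in Nr4a1 KO were compared directly between these knockouts, which tests the difference itself. Of the 49 genes, 10 were lower in Irf2 KO than in Nr4a1 KO and 6 were higher; of all tested genes 9.94% were lower and 12.4% higher. Lower in Irf2 KO were the glycosidase Man2b1, the sulfatases Arsb, Ids and Arsa, the lipid hydrolases Asah1 and Ppt1, the peptidase Cpq, the membrane proteins Cd68 and Laptm5, and Atp6ap1 of the pump. Lower in Nr4a1 KO were the glycosidases Hexa, Gusb and Gaa, and Tcirg1, Atp6v0d1 and Atp6v1b2 of the pump. The call of Arsa (-0.52, adjusted p = 0.0442) held in 6 of 11 alternatives and was lost without any 1 library other than wild type (adjusted p up to 0.205). This comparison shares its libraries with those against wild type.

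The log2 fold change of Irf2 KO against Nr4a1 KO was -5.82 for Cpq (adjusted p = 2.51e-05), -2.04 for Arsb (adjusted p = 0.000434), -1.17 for Ids, -1.15 for Asah1 (adjusted p = 0.000264) and -1.06 for Cd68 (adjusted p = 8.93e-05). In the other direction it was above Nr4a1 KO by 1.17 for Hexa (adjusted p = 0.000697), 1.08 for Gusb (adjusted p = 0.000232), 0.81 for Gaa (adjusted p = 0.0108), 0.75 for Tcirg1 (adjusted p = 0.00539) and 0.63 for Atp6v0d1 (adjusted p = 0.0106). The call of Gaa ended without either Irf2 KO library (adjusted p up to 0.0587). Without Irf2 KO replicate 2 the difference was 0.44 for Atp6v0d1, 0.47 for Atp6v1b2 and -0.39 for Laptm5, and these calls ended. The call of Laptm5 also ended with no trend (adjusted p = 0.0596). Of the 16 calls, 9 were kept under every alternative run for this comparison and without any 1 library.

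The Bcl6 cKO-labelled libraries gave a further comparison for this split. Against Irf2 KO 8 of the 49 genes were called, all higher in the Bcl6 cKO-labelled libraries (5.68% of all tested genes were higher and 3.87% lower), and against Nr4a1 KO 6 were higher and 1 lower (4.97% and 0.776% of all tested genes). Lower in Irf2 KO than in all 3 other genotypes were Arsb, Asah1, Cpq, Cd68 and Laptm5. Lower in Nr4a1 KO than in all 3 others were Hexa, Gusb, Tcirg1, Atp6v0d1 and Atp6v1b2. The comparisons behind each of these statements share a knockout's libraries. The difference between the Bcl6 cKO-labelled libraries and Irf2 KO was 5.84 for Cpq (adjusted p = 0.000123), 2.44 for Arsb (adjusted p = 0.00122), 1.0 for Asah1 (adjusted p = 0.00253) and 0.67 for Cd68 (adjusted p = 0.00334). For Laptm5 it was 0.47 (adjusted p = 0.0207), a call that ended without any 1 of the 4 libraries compared (adjusted p = 0.06 to 0.12).

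Between the Bcl6 cKO-labelled libraries and Nr4a1 KO, the difference was 1.05 for Hexa (adjusted p = 0.00266) and 0.97 for Gusb (adjusted p = 0.000876). Tcirg1 (0.62, adjusted p = 0.029), Atp6v0d1 (0.66, adjusted p = 0.0213) and Atp6v1b2 (0.58, adjusted p = 0.044) were also called, and all 3 calls ended without either Bcl6 cKO library or without Nr4a1 KO replicate 1 (adjusted p = 0.059 to 0.289). With no trend all 3 ended too (adjusted p = 0.107, 0.085 and 0.137 in that order). The call of Tcirg1 also ended with the GC correction (0.0819). That of Atp6v1b2 also ended with median centring (0.0683), library weights (0.056) and the 2 groups alone (0.0739). Cd68 was the gene lower in the Bcl6 cKO-labelled libraries, by 0.39 (log2 fold change -0.39, adjusted p = 0.0268). That call ended with no trend (0.134), with the 2 groups alone (0.0967), and without either Bcl6 cKO library, Irf2 KO replicate 1 or Nr4a1 KO replicate 2 (adjusted p up to 0.181). Psap was higher in the Bcl6 cKO-labelled libraries by 0.96 (adjusted p = 0.0434), but its call held in only 5 of 11 alternatives. It was lost without either Bcl6 cKO library, either Irf2 KO library or Nr4a1 KO replicate 1. The difference was 0.82 without Bcl6 cKO replicate 1 and 0.67 without Nr4a1 KO replicate 1. In the comparison with Irf2 KO, Ids (1.09, adjusted p = 0.0252), Tpp1 (0.62, adjusted p = 0.019) and Scarb2 (0.55, adjusted p = 0.0255) were higher in the Bcl6 cKO-labelled libraries. All 3 ended without Bcl6 cKO replicate 1 (adjusted p = 0.0759, 0.111 and 0.0623) and without Irf2 KO replicate 2 (0.146, 0.118 and 0.109).

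**Figure D5:**
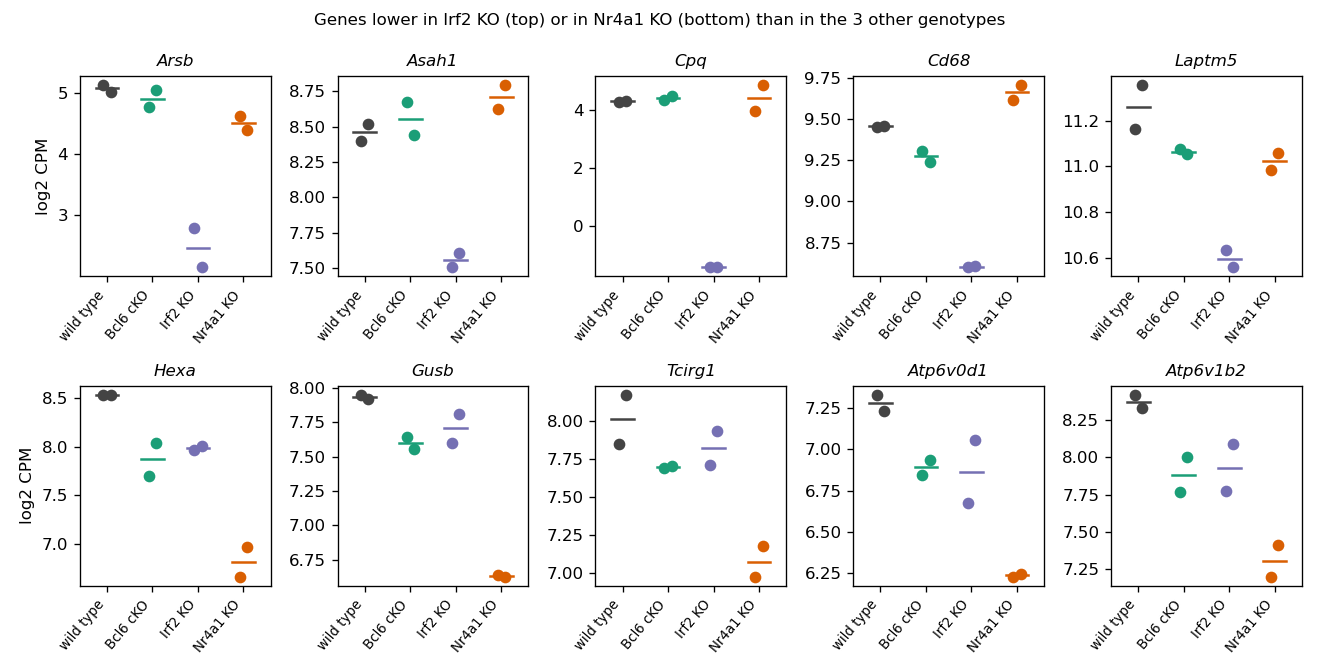
Log2 CPM in each library (points) of the 5 genes lower in Irf2 KO than in all 3 other genotypes (top) and of the 5 lower in Nr4a1 KO than in all 3 others (bottom). Cpq falls to -1.39 and -1.41 in Irf2 KO, and Hexa to 6.66 and 6.97 in Nr4a1 KO.

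Further lysosomal hydrolases outside the 49 were counted in the same way. Of 26 tested, 8 were lower and 1 higher in Irf2 KO, 4 lower in Nr4a1 KO, and 1 lower and 1 higher in the Bcl6 cKO-labelled libraries. The shares called lower were 30.8%, 15.4% and 3.85%, against 12.3%, 11.2% and 3.65% of all tested genes, among which lower calls also outnumbered higher ones. Naaa, an amidase that splits N-acylethanolamines, was at 7.96 and 7.97 log2 CPM in wild type and at 6.85 and 6.69 in Nr4a1 KO. It fell by 1.19 ± 0.15 in that knockout (adjusted p = 0.000875), and the call held under all 12 alternatives. Pld4, a lysosomal nuclease, was at 10.98 and 11.13 log2 CPM in wild type and at 10.47 and 10.48 in Irf2 KO, where it fell by 0.58 ± 0.10 (adjusted p = 0.00599). That call ended with the GC correction (adjusted p up to 0.0738).

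Fuca1, the lysosomal fucosidase, was at 7.86 and 7.95 log2 CPM in wild type, 7.53 and 7.57 in the Bcl6 cKO-labelled libraries, 7.29 and 7.45 in Irf2 KO, and 5.70 and 5.90 in Nr4a1 KO. It fell by 2.11 ± 0.11 in Nr4a1 KO (adjusted p = 1.61e-05), which held its lowest libraries, as for Hexa and Gusb. Man2b2, a mannosidase, fell in all 3 comparisons with wild type: by 0.93 ± 0.15 in Nr4a1 KO, 0.78 ± 0.15 in Irf2 KO and 0.87 ± 0.15 in the Bcl6 cKO-labelled libraries (adjusted p = 0.00323, 0.00851 and 0.0141). All 3 calls of Man2b2 ended with the GC correction (adjusted p up to 0.14). The genes that rose were Hpse, a heparanase, in Irf2 KO (0.61 ± 0.18, adjusted p = 0.0408) and Pld3, a relative of Pld4, in the Bcl6 cKO-labelled libraries (0.89 ± 0.15, adjusted p = 0.0143). Both ended without single libraries (adjusted p up to 0.189 and 0.138).

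Of 12 tested further subunits and assembly factors of the V-ATPase, Atp6v0a1, another isoform of the V0 a subunit, fell by 1.28 ± 0.20 in Irf2 KO (adjusted p = 0.00489) and by 0.93 ± 0.20 in Nr4a1 KO (adjusted p = 0.0163). It was at 4.95 and 4.61 log2 CPM in wild type, 4.30 and 4.51 in the Bcl6 cKO-labelled libraries, 3.26 and 3.76 in Irf2 KO, and 3.82 and 3.89 in Nr4a1 KO. All 4 libraries of these knockouts were below the other 4. The Nr4a1 KO call of Atp6v0a1 ended with the GC correction and without wild type replicate 1 (adjusted p up to 0.0988). The assembly factor Vma21 was higher (0.49 ± 0.12, adjusted p = 0.025) and Rogdi lower (-0.61 ± 0.14, adjusted p = 0.0173) in Irf2 KO, and Dmxl1 was higher in Nr4a1 KO (0.73 ± 0.21, adjusted p = 0.0488). Each of these 3 calls ended without single libraries (adjusted p up to 0.114, 0.0944 and 0.221).

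Regulators of lysosomal genes were called in both directions. Of 22 tested, 6 were lower and 1 higher in Irf2 KO, 4 lower and 1 higher in Nr4a1 KO, and 2 higher in the Bcl6 cKO-labelled libraries. The shares called lower were 27.3% in Irf2 KO and 18.2% in Nr4a1 KO, against 12.3% and 11.2% of all tested genes. In the Bcl6 cKO-labelled libraries 9.09% were higher, against 1.36%. Tfeb, which binds the CLEAR element, was at 4.86 and 5.30 log2 CPM in wild type, 4.15 and 4.43 in the Bcl6 cKO-labelled libraries, 3.68 and 4.18 in Irf2 KO, and 3.65 and 3.72 in Nr4a1 KO. The 6 libraries of the other genotypes were below wild type. Tfeb fell by 1.39 ± 0.22 in Nr4a1 KO (adjusted p = 0.00307) and by 1.15 ± 0.22 in Irf2 KO (adjusted p = 0.00878). The second of these calls was lost on leaving out wild type replicate 2 or the first Irf2 KO library, with an adjusted p of up to 0.059.

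Tfec, a myeloid relative of Tfeb, moved the other way: it was at 5.68 and 5.74 log2 CPM in wild type, 7.0 and 6.86 in the Bcl6 cKO-labelled libraries, 6.32 and 6.40 in Irf2 KO, and 5.59 and 5.98 in Nr4a1 KO. It rose by 1.22 ± 0.14 in the Bcl6 cKO-labelled libraries (adjusted p = 0.00401) and by 0.65 ± 0.14 in Irf2 KO (adjusted p = 0.0138). Mitf rose by 0.84 ± 0.18 in the Bcl6 cKO-labelled libraries (adjusted p = 0.0327). Flcn, which signals amino acid supply to these factors, fell by 0.77 ± 0.17 in Irf2 KO (adjusted p = 0.0174), and Rraga, a GTPase of the same pathway, by 1.52 ± 0.33 in Nr4a1 KO (adjusted p = 0.0153). Ppp3cb, a calcineurin subunit, rose by 0.51 ± 0.13 in Nr4a1 KO (adjusted p = 0.0323). Of these calls, those of Mitf, Flcn and Ppp3cb ended with the GC correction, that of Rraga in a fit of the 2 groups alone, and those of Tfec without single libraries (adjusted p up to 0.217, 0.084, 0.156, 0.0726 and 0.078).

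Of 28 tested transporters and channels, 5 were lower in Irf2 KO, 2 lower and 1 higher in Nr4a1 KO, and 1 lower and 1 higher in the Bcl6 cKO-labelled libraries. In that order the shares called lower were 17.9%, 7.14% and 3.57%, against 12.3%, 11.2% and 3.65% of all tested genes. Slc11a1, the phagosomal metal exporter Nramp, was at 6.64 and 6.87 log2 CPM in wild type, 5.66 and 5.38 in the Bcl6 cKO-labelled libraries, 4.76 and 4.84 in Irf2 KO, and 6.68 and 6.33 in Nr4a1 KO. It fell by 1.95 ± 0.16 in Irf2 KO (adjusted p = 0.00104) and by 1.23 ± 0.16 in the Bcl6 cKO-labelled libraries (adjusted p = 0.00589), while Nr4a1 KO overlapped wild type. Slc46a3, a lysosomal solute carrier, fell by 1.92 ± 0.33 in Irf2 KO (adjusted p = 0.00628). Cd164, a sialomucin of endosomes and lysosomes, was at 6.70 and 6.62 log2 CPM in wild type, 8.17 and 8.00 in the Bcl6 cKO-labelled libraries, 7.03 and 6.93 in Irf2 KO, and 4.98 and 5.32 in Nr4a1 KO. It rose by 1.43 ± 0.13 in the Bcl6 cKO-labelled libraries (adjusted p = 0.00233) and fell by 1.51 ± 0.13 in Nr4a1 KO (adjusted p = 0.000117), with both calls kept under all 12 alternatives. In Nr4a1 KO Mfsd12 fell by 0.80 ± 0.21 (adjusted p = 0.0357) and Ostm1, a partner of a chloride exchanger, rose by 0.65 ± 0.13 (adjusted p = 0.0103). The call of Mfsd12 held in 6 of 12 alternatives (adjusted p up to 0.607).

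Sorting genes carry hydrolases from the Golgi. Of 18 tested, 3 were lower and 3 higher in Irf2 KO, 3 lower and 2 higher in Nr4a1 KO, and 2 lower in the Bcl6 cKO-labelled libraries. In that order the shares called lower were 16.7%, 16.7% and 11.1%, against 12.3%, 11.2% and 3.65% of all tested genes. Gga1, an adaptor of mannose phosphate receptors, was at 5.88 and 6.49 log2 CPM in wild type, 5.36 and 5.37 in the Bcl6 cKO-labelled libraries, 5.40 and 5.32 in Irf2 KO, and 4.81 and 4.70 in Nr4a1 KO. It fell by 1.44 ± 0.18 in Nr4a1 KO (adjusted p = 0.00103), by 0.83 ± 0.18 in Irf2 KO (adjusted p = 0.0154) and by 0.82 ± 0.18 in the Bcl6 cKO-labelled libraries (adjusted p = 0.0381). The latter 2 calls ended without wild type replicate 2, the higher one, and with the GC correction (adjusted p up to 0.157 and 0.279). Ap1m1, a subunit of a clathrin adaptor, fell by 0.86 ± 0.09 in Nr4a1 KO (adjusted p = 0.000474) and by 0.48 ± 0.09 in the Bcl6 cKO-labelled libraries (adjusted p = 0.0271). Gga3 fell by 0.65 ± 0.14 in Irf2 KO (adjusted p = 0.0148), and Vps29, of the retromer that returns receptors, rose by 0.49 ± 0.10 in Irf2 KO (adjusted p = 0.0135) and by 0.41 ± 0.10 in Nr4a1 KO (adjusted p = 0.0296). The calls of Gga3 and Vps29 ended without wild type replicate 2, among other settings (adjusted p up to 0.122, 0.0831 and 0.164). Ap3s1, of another adaptor, rose by 0.50 ± 0.15 in Irf2 KO (adjusted p = 0.0469) and by 0.59 ± 0.15 in Nr4a1 KO (adjusted p = 0.0315), and both calls held in 6 of 12 alternatives.

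Markers of other cells and stages moved with genotype, foremost in Irf2 KO, and their part in the lysosomal results was not tested. Early myeloid primary granule genes, 6 of 7 tested higher and 1 lower in Irf2 KO, summed to 3595 and 4572 CPM there. Their sums were 1697 and 1952 CPM in wild type, and 1903 and 1988 CPM in Nr4a1 KO, with 2 higher (Ms4a3 and Ctsg). The Bcl6 cKO-labelled libraries held 2495 and 2148 CPM, with 1 higher (Elane). Neutrophil genes, 6 of 12 lower in Irf2 KO, summed to 514 and 1202 CPM there against 2235 and 1882 CPM in wild type. Nr4a1 KO stood at 2586 and 2146 CPM with none called. The Bcl6 cKO-labelled libraries stood at 1254 and 1041 CPM, with 2 lower (Mmp9 and Csf3r). Nonclassical monocyte genes were lower in 6 of 10 cases in Irf2 KO and 4 of 10 in Nr4a1 KO. They summed to 290 and 241 CPM in Irf2 KO, 453 and 548 CPM in Nr4a1 KO, and 522 and 673 CPM in wild type. In the Bcl6 cKO-labelled libraries they summed to 372 and 398 CPM, with 1 higher (Pparg) and 1 lower (Itgal). That list holds Nr4a1 itself, the targeted gene, which is 1 of the 4 lower in Nr4a1 KO (with Ace, Pparg and Treml4). Of 8 classical monocyte markers, 4 were lower in Irf2 KO (Lyz2, Cd14, Csf1r and Itgam), 2 higher in Nr4a1 KO (Cd14 and Ccr2) and 1 higher in the Bcl6 cKO-labelled libraries (Cd14). Of 14 markers of bone marrow macrophages, cells rich in lysosomes, 8 were tested and summed to 139 and 151 CPM in wild type, 99.3 and 125 CPM in Irf2 KO, 122 and 119 CPM in Nr4a1 KO, and 131 and 131 CPM in the Bcl6 cKO-labelled libraries. That list had 1 gene lower in Irf2 KO (Slc40a1) and 1 in Nr4a1 KO (Axl). Of 7 markers of T and NK cells 1 was tested, Nkg7, which was higher in Irf2 KO (0.89, adjusted p = 0.0219), Nr4a1 KO (0.81, adjusted p = 0.0368) and the Bcl6 cKO-labelled libraries (1.13, adjusted p = 0.0231).

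Markers of erythroid cells, B cells and plasmacytoid dendritic cells differed in Irf2 KO as well. Of 5 tested erythroid genes, 4 were lower in Irf2 KO and 1 in each of the other comparisons with wild type (Hba-a1), and they summed to 27.6 and 29.7 CPM in wild type, 3.56 and 6.66 CPM in Irf2 KO, 10.6 and 17.3 CPM in Nr4a1 KO, and 19.1 and 9.05 CPM in the Bcl6 cKO-labelled libraries. Of 5 tested B cell genes, 3 were lower in Irf2 KO (Vpreb3, Cd79a and Igkc), 1 in Nr4a1 KO (Cd79a) and 1 in the Bcl6 cKO-labelled libraries (Cd79b). Their sums overlapped, at 684 and 779 CPM in wild type and 734 and 789 CPM in Irf2 KO. Of 6 tested plasmacytoid dendritic cell genes, 3 were lower (Ly6d, Ccr9 and Bcl11a) and 1 higher (Bst2) in Irf2 KO. Their sums were 676 and 698 CPM there against 584 and 506 CPM in wild type. None was called in the other comparisons with wild type, with sums of 299 and 405 CPM in Nr4a1 KO. The Bcl6 cKO-labelled libraries held 425 and 480 CPM.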

How the data were processed

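RNA-seq of 8 libraries (4 genotypes, 2 each) was analysed from 1 deposited table of 13789 rows, of which 45 repeats were dropped. Per the labels, libraries came from 10 ng of RNA by full-length cDNA synthesis and were sequenced as paired reads. Per the submitters' processing notes, bcl2fastq, STAR, Subread featureCounts, Salmon and limma were used with mm10. The log2 values were deposited by the authors as log2 CPM (reads plus 0.5 over scaled library totals); undoing this gave whole reads within 0.01 for 100% of values. The authors' p-values and fold changes, per the file headers made with limma, served as an alternative only.

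The log2 CPM of the 12752 genes that averaged 1 CPM or more were fitted with limma 3.58.1 (R 4.3.3; 4 group means, a trend of the prior variance, 4 residual and 4.66 prior degrees of freedom, spread assumed alike over groups), with Benjamini-Hochberg adjustment per comparison. Replicates were least alike in Nr4a1 KO, with a Pearson r of log2 CPM of 0.971. It was 0.984 in Irf2 KO, 0.985 in wild type and 0.989 in the Bcl6 cKO-labelled libraries. The shared spread may thus be too narrow for Nr4a1 KO. In fits without 1 library, the lone library of that genotype was assumed to vary like the others. The procedure was also run on simulated counts with the same dispersion for all genes and genotypes. That run cannot show how the fit behaves where the spread differs between genotypes. Coordinates, lengths and GC content came from GENCODE M21 (GRCm38), for 12740 of the tested genes.

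Named genes were, per comparison with wild type, up to 8 rises and 8 falls among called genes whose libraries did not overlap, further called genes by role, and 2 rises and 2 falls of each pathway list. The members and lists were chosen with earlier results of these data known. A pathway list was shortened by 2 genes that are not reported here. Alternatives were no trend, no filter or one of 4 CPM, median centring, quantile normalization, library weights, the 2 groups alone, the replicate number as a block, a GC and length correction, both together, voom, the authors' results, and leaving out each library. Strand of counting is not stated, so reads of overlapping genes cannot be told apart. Python 3.11.15 with matplotlib 3.10.9 drew the figures.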

Additional observations from a re-analysis of the deposited data

How the results depend on the processing

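With 2 libraries per genotype, counts of called genes near the threshold moved with the fit, while no called change of the 49 genes reversed its sign under any of the 12 alternatives or on leaving out a library. Lysosomal genes called against wild type in Bcl6 cKO (1 in the report) numbered 0 with no trend, 2 with a filter of 4 CPM, 2 with library weights, 2 with voom, 3 in the authors' deposited table and 5 with the 2 groups alone. In Nr4a1 KO (8) they numbered 5 with no trend and 5 with the 2 groups alone. Between Bcl6 cKO and Irf2 KO (8) they numbered 4 with no trend and 13 with the 2 groups alone, and between Bcl6 cKO and Nr4a1 KO (7) 2 with no trend and 4 with the 2 groups alone. The causes were not tested. Leaving out 1 library gave 0 to 3 calls for Bcl6 cKO, 7 to 18 for Irf2 KO and 5 to 8 for Nr4a1 KO against wild type; the lowest counts of the last 2 came without wild type replicate 2. It gave 12 to 18 between Irf2 KO and Nr4a1 KO, 4 to 11 between Bcl6 cKO and Irf2 KO, and 2 to 7 between Bcl6 cKO and Nr4a1 KO. Same-numbered libraries did not deviate together in all pairs of genotypes (r of deviations from the group means -0.00 to 0.18), so the numbers were not taken as pairs; with the replicate number as a block the counts were 1, 15 and 7 against wild type, and 16, 8 and 7 in the comparisons of Irf2 KO with Nr4a1 KO and of Bcl6 cKO with each. The block ended the call of Arsa between Irf2 KO and Nr4a1 KO (adjusted p = 0.0537) and that of Smpd1 between Nr4a1 KO and wild type (0.0505). The share of all calls that were higher in Bcl6 cKO than in wild type was 27.1% as reported and 40.7% with median centring. The lowest read count of any of the 49 genes in a library was 18 (Cpq in Irf2 KO), and how far depth limited other calls was not tested.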
